A study of Homo sapiens with 6 samples.

Results

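Chromatin accessibility was described at the zinc finger genes of human chromosome 19, taken as the GENCODE protein-coding genes of that chromosome whose symbol is ZNF followed by a number. There were 246 of them among 1476 protein-coding genes of the chromosome. The number stood alone in 240 of the 246 symbols and had a letter after it in the others. ATAC-seq, in which a transposase cuts and tags open DNA, had been carried out on H9 cells, an established human embryonic stem cell line, kept as naive embryonic stem (nES) cells in tt2iLGö medium. The cells had been freed of mouse feeder cells and plated on laminin. They then received no dm-αKG (control, 3 libraries, which the labels also call DMSO) or 4 mM dm-αKG (dimethyl α-ketoglutarate, an ester of α-ketoglutarate that enters cells; 3 libraries) for 24 h. All 6 libraries came from the same line and the same medium, in an experiment done once, so p-values measure the spread between these cultures. A peak was counted as a promoter peak when its centre lay within 1000 bp of a transcript start of a member gene, and as a gene body peak when it lay inside a member gene and within 1000 bp of no member's start. This gave 688 promoter peaks and 287 gene body peaks of the 171517 peaks in the deposited count table.

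Most zinc finger genes of this chromosome encode a KRAB domain followed by an array of C2H2 fingers. The fingers bind DNA, often inside transposable elements, and the KRAB domain recruits TRIM28, which in turn brings in the histone H3 lysine 9 methyltransferase SETDB1, HP1 proteins, the NuRD complex and DNA methyltransferases. The genes arose by repeated tandem duplication, so that neighbours share sequence in coding and non-coding parts. α-Ketoglutarate is a cofactor of histone and DNA demethylases. The study used ATAC-seq to ask how dm-αKG changes which regulatory elements are in use.

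A KRAB A box was found in the translated coding sequence of 213 of the 246 genes, and 33 had none. The proteins carried a median of 13 C2H2 fingers, with a range of 1 to 39. Chaining members less than 500 kb apart gave 10 clusters of at least 5 genes, numbered here along the chromosome, with 232 genes in them and 14 outside. The largest were cluster 10 (43 genes, 57.19 to 58.48 Mb on hg38), cluster 8 (39 genes, 51.57 to 53.58 Mb) and cluster 4 (37 genes, 19.67 to 24.13 Mb). Each of the 39 genes of cluster 8 had a KRAB box.

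Libraries held between 13025674 and 26828622 counts in peaks, so that 1 read was worth between 0.717 and 1.5 normalised counts. A normalised read count here is a count scaled to the mean effective library size by TMM. Of the markers of naive pluripotent cells, 7 of 7 had promoter peaks, at 953 to 5081 normalised counts per kb in control at the strongest one. Those of primed cells had 5 of 5, at 335 to 932. Trophoblast markers had 4 of 5 (CGA had none), at 638 to 1828, and fibroblast markers 3 of 4 (PDGFRB had none), at 550 to 959. Of these 19 strongest peaks 3 passed the test used below, all less accessible with dm-αKG, namely KLF17 (naive, log2 fold change -0.39), SFRP2 (primed, -0.42) and TWIST2 (fibroblast, -0.58). Over all 72 promoter peaks of these markers 9 were more accessible (12.5%, against 10.4% of all protein-coding promoter peaks) and 10 less (13.9%, against 3.86%), with 4 more and 6 less among the 24 of the naive markers. Their part in the results was not tested.

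Some of the promoter sequences are printed first, as a description. All come from hg38 and read 5′ to 3′ on the strand of the gene, without annotated untranslated bases. Capitals mark the letters CCAAT (NFY), GGGCGG (SP and KLF factors), CCGGAAG (ETS factors) or AAGATGGCG (YY1) or their reverse complements. The first set holds promoter peaks that rose. ZNF211 had the best supported rise among the strongest peaks of each gene, ZNF525 and ZNF765 are near-copies that rose together, and the ZNF208 peak passed the fold threshold.
ZNF211 promoter (chr19:57632983-57633166, plus strand): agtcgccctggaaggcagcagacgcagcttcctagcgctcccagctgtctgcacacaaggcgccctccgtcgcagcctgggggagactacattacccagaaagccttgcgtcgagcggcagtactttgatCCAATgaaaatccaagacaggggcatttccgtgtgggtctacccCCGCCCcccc
ZNF525 promoter (chr19:53365181-53365387, plus strand): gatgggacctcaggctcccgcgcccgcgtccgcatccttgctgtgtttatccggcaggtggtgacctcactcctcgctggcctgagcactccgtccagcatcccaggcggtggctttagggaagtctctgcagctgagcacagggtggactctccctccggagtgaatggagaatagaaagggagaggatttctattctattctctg
ZNF765 promoter (chr19:53394611-53394820, plus strand): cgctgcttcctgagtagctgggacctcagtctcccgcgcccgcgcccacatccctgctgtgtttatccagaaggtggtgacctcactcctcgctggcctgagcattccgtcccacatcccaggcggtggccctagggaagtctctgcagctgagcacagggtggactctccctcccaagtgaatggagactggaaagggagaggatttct
ZNF208 promoter, downstream peak (chr19:22010458-22010663, minus strand): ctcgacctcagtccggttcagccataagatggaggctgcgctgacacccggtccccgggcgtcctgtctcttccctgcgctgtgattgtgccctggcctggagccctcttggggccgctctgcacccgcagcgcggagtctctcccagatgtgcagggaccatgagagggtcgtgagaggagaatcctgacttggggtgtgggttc

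Only the ZNF211 peak held any of these 4 motifs. The next set shows the strongest promoter peak of 4 genes of cluster 4 at 19p12, which all hold CCAAT, 1 or 2 times. 3 of the 4 also hold the SP and KLF letters and the ETS letters, which adjoin each other in ZNF91 and ZNF98.
ZNF91 promoter (chr19:23395472-23395661, minus strand): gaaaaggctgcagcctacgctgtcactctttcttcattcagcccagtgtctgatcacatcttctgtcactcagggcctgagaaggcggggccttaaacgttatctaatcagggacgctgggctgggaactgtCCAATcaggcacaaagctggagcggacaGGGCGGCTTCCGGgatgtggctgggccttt
ZNF676 promoter (chr19:22215776-22215899, minus strand): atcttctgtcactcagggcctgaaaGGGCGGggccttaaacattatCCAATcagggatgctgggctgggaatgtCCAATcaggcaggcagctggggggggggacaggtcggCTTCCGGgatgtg
ZNF98 promoter (chr19:22422358-22422550, minus strand): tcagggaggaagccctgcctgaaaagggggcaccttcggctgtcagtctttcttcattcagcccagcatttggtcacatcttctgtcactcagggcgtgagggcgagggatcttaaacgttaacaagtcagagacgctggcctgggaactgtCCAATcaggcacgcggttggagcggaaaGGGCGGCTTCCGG
ZNF729 promoter (chr19:22286225-22286429, plus strand): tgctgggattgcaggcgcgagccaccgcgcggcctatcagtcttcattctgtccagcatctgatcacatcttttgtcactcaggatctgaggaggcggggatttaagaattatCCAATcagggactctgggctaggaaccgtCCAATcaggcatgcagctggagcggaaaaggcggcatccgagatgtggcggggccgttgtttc

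The YY1 letters were the ones with the largest ratio between the ZNF promoter peaks and all promoter peaks among 11 motifs searched. They were present in the central 200 bp of 5.67% of the ZNF promoter peaks, of 0.919% of all protein-coding promoter peaks and of 1.36% of the other promoter peaks of chromosome 19. ETS letters were in 17.0%, 6.73% and 7.23%, and NFY letters in 28.3%, 18.4% and 21.3%. SP and KLF letters were in 47.1% of the ZNF promoter peaks and in 50.6% of all promoter peaks. Among the strongest promoter peaks, 8 of 239 held the YY1 letters and 118 of 239 the NFY letters. A match describes the sequence and is no evidence of binding. The 5 leading peaks of highest control level with the YY1 letters are shown, to let their surroundings be compared, on the strand of the motif, in windows of 29 bases.
ZNF383 YY1 window (chr19:37218105-37218133, minus strand): ccgcgccgagAAGATGGCGcctgtttttt
ZNF582 YY1 window (chr19:56393531-56393559, plus strand): gcgcagccggAAGATGGCGcagacgcaca
ZNF135 YY1 window (chr19:58060532-58060560, plus strand): tctgcgctccAAGATGGCGcatcgagtgc
ZNF559 YY1 window (chr19:9324183-9324211, minus strand): acgcgctgttAAGATGGCGgccgttatgc
ZNF524 YY1 window (chr19:55599664-55599692, minus strand): gccctcacccAAGATGGCGcgggcctggc

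The promoters of the zinc finger genes were, as a group, slightly more accessible with dm-αKG, and few of them changed by much. At an adjusted p below 0.05 with no fold threshold (edgeR's quasi-likelihood test over all peaks, Benjamini-Hochberg), 179 of 688 promoter peaks were more accessible, or 26.0%, against 7.43% of all peaks. In the other direction 12 were less accessible (1.74%, against 10.5% of all peaks). The median log2 fold change of the 688 was 0.24, with quartiles of 0.11 and 0.40, against 0.01 over all peaks, and 602 of them (87.5%) lay above 0. In 322 peaks (46.8%) every dm-αKG library was above every control library, against 15.5% of all peaks, and in 18 (2.62%) below, against 16.9%. With the stricter rule of an adjusted p below 0.01 and a change of more than 1 on the log2 scale, 9 peaks were called more accessible (1.31%, against 0.782% of all peaks) and 1 less accessible (0.145%, against 1.96%). In bulk libraries a change in all cells and a larger change in some of them cannot be told apart.

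The rise was present in each treated library. Relative to the control mean, the median ZNF promoter peak stood at a log2 ratio of 0.25, 0.24 and 0.17 in dm-αKG replicates 1 to 3, and at -0.01, 0.02 and -0.03 in the controls. The promoter peaks of the 246 genes took 0.685, 0.695 and 0.679% of the counts in peaks in the controls, and 0.808, 0.804 and 0.769% with dm-αKG. The groups did not overlap. Counted by gene, 137 of the 246 (55.7%) had at least 1 promoter peak more accessible and 12 (4.88%) at least 1 less accessible, 8 of them both, while 105 had neither. Among the 993 other protein-coding genes of chromosome 19 with a promoter peak the shares were 49.0 and 8.86%, and among all 16275 such genes 29.1 and 11.1%, with a median of 3 promoter peaks per gene in each group.

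A rise of promoters was not particular to these genes. The other promoter peaks of chromosome 19 had a median log2 fold change of 0.19, with 20.7% of 2878 more accessible and 3.02% less. ZNF promoter peaks on other chromosomes had a median of 0.10, with 10.5% of 803 more accessible and 3.74% less, and all protein-coding promoter peaks a median of 0.10, 10.4% and 3.86%. Every dm-αKG library was above every control in 33.4% of the other promoter peaks of chromosome 19 and in 21.6% of all protein-coding promoter peaks. In these 2 groups 77.9 and 66.1% of peaks lay above 0, and 1.08 and 0.485% were called more accessible. Of the counts in promoter peaks of chromosome 19, a total that includes their own, the ZNF promoters took 20.9, 20.8 and 21.0% in the controls. With dm-αKG they took 21.1, 21.2 and 21.6%. The groups did not overlap here either, but the ratio of the means was 1.02, against 1.16 for the share of all counts. For the other promoter peaks of chromosome 19, the ratio for the share of all counts was 1.13.

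**Figure D1:**
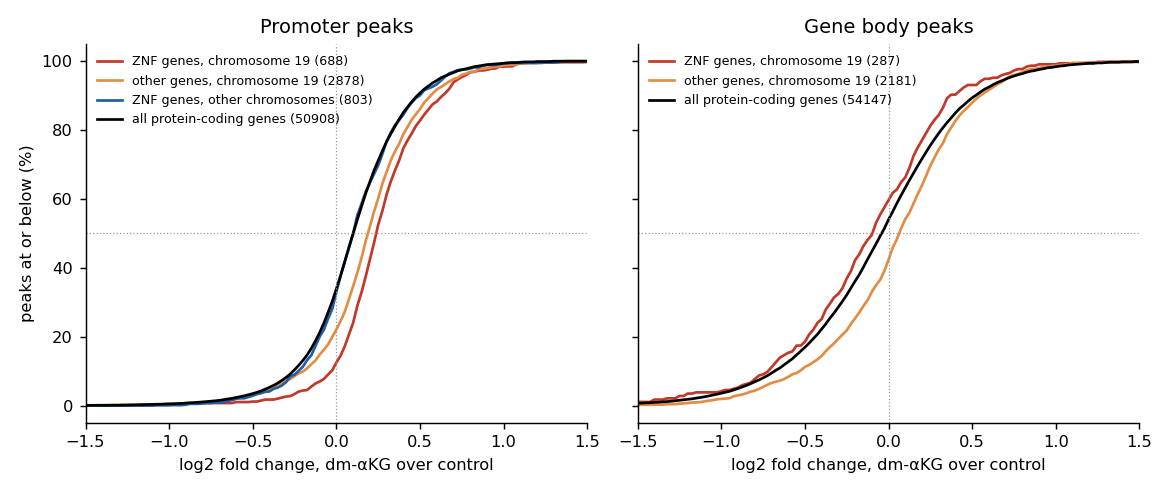
Share of peaks (y axis, percent) with a log2 fold change of dm-αKG over control at or below the value on the x axis, for promoter peaks on the left and gene body peaks on the right; each line is a group of peaks, with its number in the legend. The promoter peaks of chromosome 19 ZNF genes have the rightmost curve, with a median of 0.24, followed by other chromosome 19 promoters at 0.19. ZNF promoters of other chromosomes follow all protein-coding promoters at 0.10. For gene bodies the ZNF curve is leftmost, with a median of -0.10. The other gene body groups leave out peaks near any gene start, the ZNF group only those near a member's start.

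The promoter median differed between chromosomes. Ranked by the median of their promoter peaks, chromosome 19 (0.20), 22 (0.20) and 17 (0.18) came first, and 16 (0.15) next, with the others between 0.03 on X and 0.12 on chromosome 20; Y, with few peaks, was left out. The same 3 chromosomes had the highest medians for peaks away from gene starts, at 0.04, 0.04 and 0.01, where the other autosomes lay between -0.11 and -0.04. Median GC content was 61.4% in ZNF promoter peaks, 65.7% in the other promoter peaks of chromosome 19 and 65.9% in all promoter peaks. With offsets for GC content the medians became 0.22 for ZNF promoters, 0.13 for other promoters of chromosome 19, 0.05 for ZNF promoters elsewhere and 0.04 for all promoters. The shares more accessible became 22.2, 13.6, 8.09 and 7.25%. The part of the chromosome-wide shift in the ZNF result was not tested further.

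**Figure D2:**
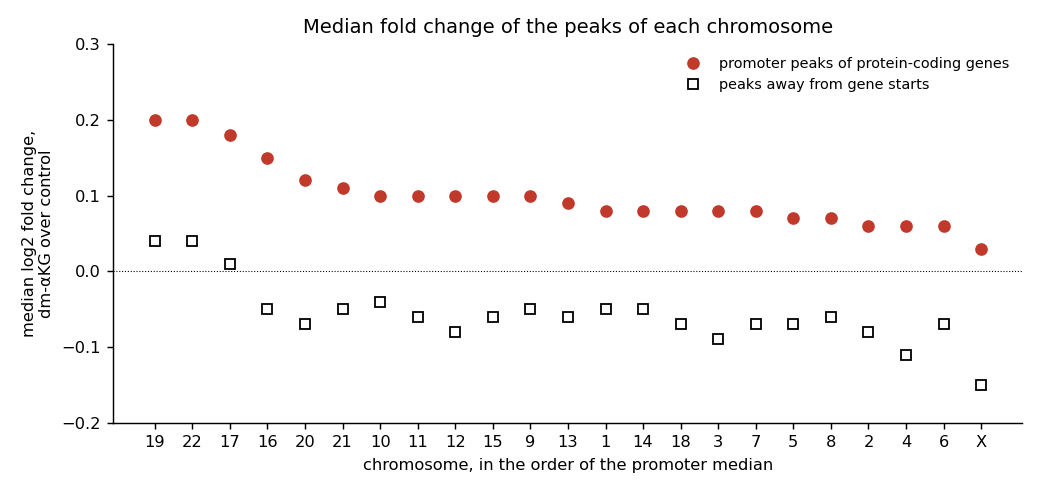
Median log2 fold change of dm-αKG over control (y axis) of the promoter peaks (filled circles) and of the peaks away from gene starts (open squares) of each chromosome, in the order of the promoter median (x axis). Chromosomes 19, 22 and 17 have the highest values of both, with promoter medians of 0.20, 0.20 and 0.18.

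The size of the change varied with position within the promoter. Peaks centred 0 to 200 bp upstream of a start, which were the strongest (median 1503 normalised counts per kb in control), had a median log2 fold change of 0.19, with 29.0% of 269 more accessible. Peaks 200 to 1000 bp downstream, which were weaker (271 per kb), had a median of 0.38, with 28.5% of 179 more accessible and 1.68% less. Peaks 200 to 1000 bp upstream had a median of 0.23 and the smallest share more accessible, 13.2% of 129, with 3.88% less. The level differed between these positions together with the fold change, and its part was not tested.

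**Figure D3:**
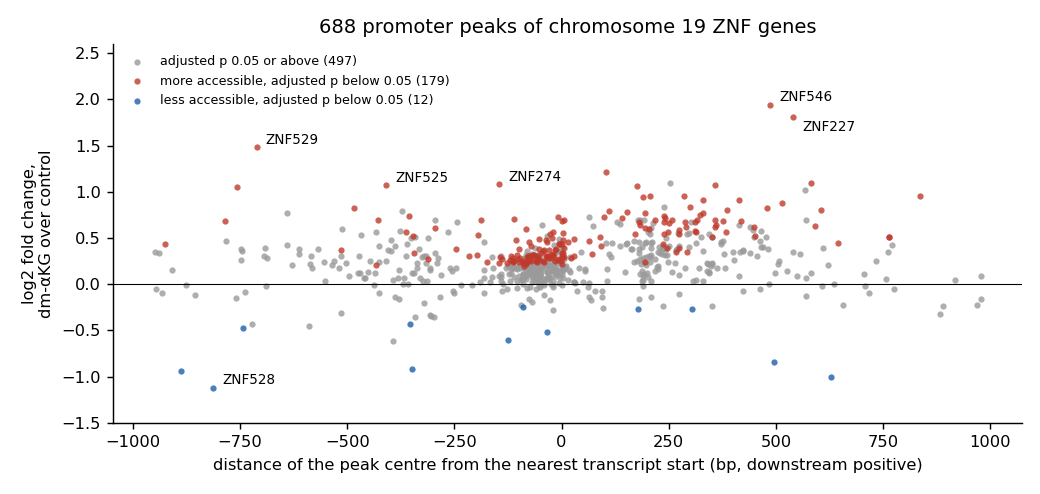
Log2 fold change of dm-αKG over control (y axis) of each of the 688 promoter peaks against the distance of its centre from the nearest transcript start (x axis, bp, downstream positive); red points were more and blue points less accessible at an adjusted p below 0.05. The 179 red points include a dense group just upstream of the start at small fold changes and a looser one downstream at larger ones, and the 12 blue points lie on both sides.

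Taking the strongest promoter peak of each gene alone gave the same picture at smaller size. Of the 246 leading peaks, 75 were more accessible (30.5%) and 3 less (1.22%), none passed the fold threshold in either direction, and the median was 0.18. For the other genes of chromosome 19 the shares of leading peaks were 22.6 and 2.92%, with a median of 0.16. The other 449 promoter peaks had a median of 0.31, and all 10 called ones were among them. Peaks of KRAB genes had a median of 0.25 (26.8% of 596 more accessible), and those of genes without the box 0.21 (20.7% of 92). Peaks that also served the start of another gene were more accessible in 30.6% of 232 cases and the unshared ones in 23.7% of 456. None of these differences between groups was tested.

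By cluster, the share of promoter peaks more accessible was highest in cluster 3 (11.48 to 12.64 Mb, 25 genes), at 36 of 72 (50.0%), with a median log2 fold change of 0.30. In cluster 4 it was 27 of 86 (31.4%), with 97.7% of the peaks above 0 and none less accessible. It was lowest in cluster 8, at 26 of 141 (18.4%), above the 7.43% of all peaks and below the 20.7% of the other promoter peaks of chromosome 19. Of the leading peaks, 13 of 25 were more accessible in cluster 3 (52.0%) and 14 of 37 in cluster 4 (37.8%). In cluster 8 it was 8 of 39 (20.5%) and in cluster 10 it was 7 of 43 (16.3%). The share was 30.5% of all 246, 22.6% for the other genes of chromosome 19 and 8.76% for all protein-coding genes. Clusters 4, 5 and 7 had no leading peak below 0, and cluster 10 had the lowest median of leading peaks, 0.12.

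**Figure D4:**
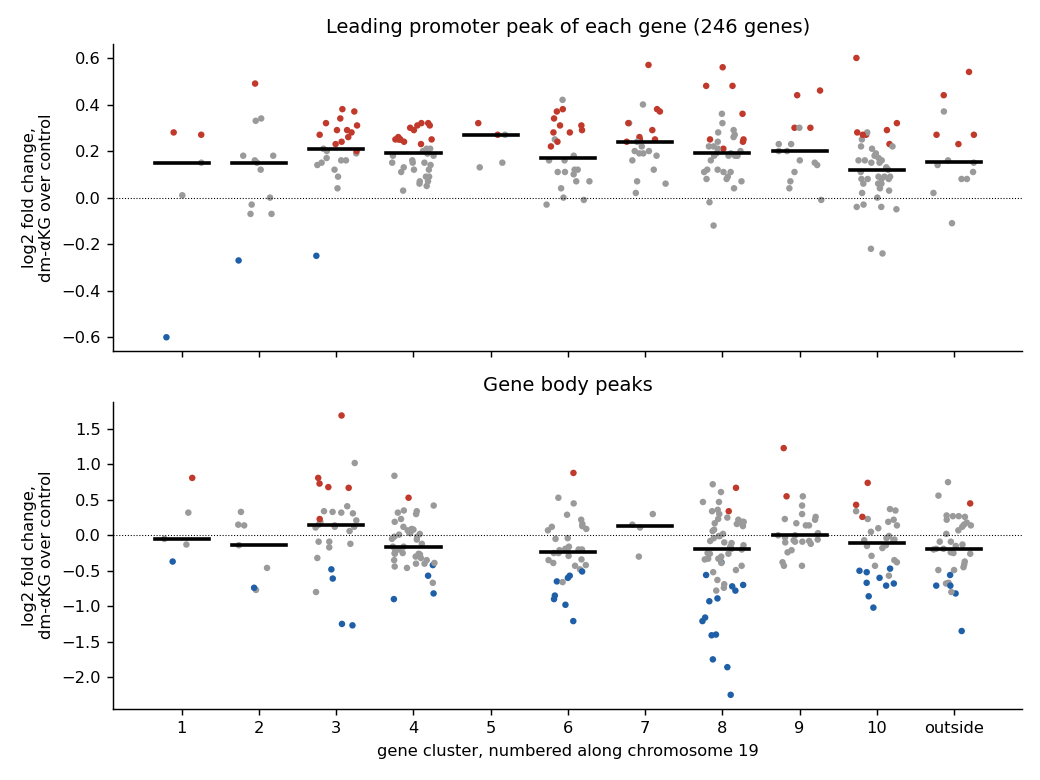
Log2 fold change of dm-αKG over control (y axes) of the leading promoter peak of each gene (upper panel) and of the gene body peaks (lower panel, on a wider scale), by gene cluster along chromosome 19 and for genes outside clusters (x axis); bars are medians, and red and blue points were more and less accessible at an adjusted p below 0.05. Every cluster has a positive promoter median, from 0.12 to 0.27, while gene body peaks reach -2.25 in cluster 8; cluster 5 has no gene body peak.

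Among single promoter peaks, the best supported rise was at ZNF274, which encodes a KRAB protein known to bind the 3′ ends of other zinc finger genes and to recruit SETDB1 there. The peak at chr19:58183671-58183881 had 68.0, 94.5 and 54.7 normalised counts in the controls and 148, 146 and 178 with dm-αKG. The groups were far apart, with a log2 fold change of 1.08 ± 0.16 (SE; adjusted p = 3.02e-07). It sits 145 bp upstream of one of the gene's starts and downstream of others, in annotated untranslated sequence, and is not the gene's strongest peak. That one, at chr19:58183263-58183469, had 262, 283 and 287 against 319, 321 and 308, a change of 0.19 ± 0.10 that did not pass the test (adjusted p = 0.160).

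ZNF211, a KRAB gene of cluster 10, had the clearest rise of a leading peak. The peak shown above had 271, 244 and 255 normalised counts in the controls and 369, 426 and 377 with dm-αKG. The lowest treated library was well above the highest control, and the log2 fold change was 0.60 ± 0.09 (SE; adjusted p = 7.14e-07). It is also the largest change of any leading peak upwards.

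ZNF525 and ZNF765, neighbouring KRAB genes of cluster 8, each had a promoter peak that rose, and these 2 peaks are copies of each other, with 92.4% identity over the aligned bases. The ZNF765 one lies inside that gene, near a start downstream of its first. The strongest ZNF765 promoter peak changed by 0.09 and did not pass the test (adjusted p = 0.452). The ZNF525 peak had 70.7, 52.6 and 65.6 normalised counts in the controls and 141, 112 and 141 with dm-αKG (log2 fold change 1.07 ± 0.17, SE; adjusted p = 1.30e-06). The ZNF765 peak had 78.7, 71.5 and 102 against 129, 124 and 150, a change of 0.69 ± 0.16 (adjusted p = 0.00113). The groups did not overlap at either. A further copy of the ZNF525 peak, at chr19:52993920-52994100 with 91.2% identity, lies under a peak with a change of 0.07 that did not pass (adjusted p = 0.769). How reads that align equally well to both copies were treated is not given in the sources used here, and whether the values depend on each other was not tested.

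The other rises among the 6 of smallest adjusted p were at ZNF101, ZNF682 and ZNF805, all KRAB genes. ZNF101 went from 47.4, 32.1 and 34.0 to 98.2, 83.4 and 77.8 normalised counts (1.21 ± 0.21, SE; adjusted p = 9.42e-06). ZNF682 went from 165, 146 and 125 to 250, 224 and 228 (0.68 ± 0.12; adjusted p = 1.34e-05), and ZNF805 from 108, 92.9 and 114 to 161, 200 and 184 (0.78 ± 0.14; adjusted p = 1.82e-05). At all 3 the treated libraries lay above the controls without overlap. The ZNF101 peak was in the authors' dm-αKG peak list and not in their control list. It thus entered the count table through the group where it was high.

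The remaining called peaks were weak in control. Those of ZNF473, ZNF490, ZNF529, ZNF546 and ZNF227 entered the count table through the authors' dm-αKG peak list alone, as did that of ZNF101. These peaks entered it through the group where they were high, so their place in the lists is no further support for the rises. The part of this entry in the calls was not tested. The peak downstream of the main ZNF208 start, shown above, had 37.6, 47.7 and 43.7 normalised counts in the controls and 99.0, 93.6 and 74.8 with dm-αKG (log2 fold change 1.07, adjusted p = 4.45e-05). Its copy at ZNF728, 94.7% identical, had a change of 0.36 that did not pass the test (adjusted p = 0.0999). ZNF473, whose product takes part in the processing of histone pre-mRNA, had 44.7, 34.5 and 58.3 against 100, 101 and 74.8 at a peak that is also a start of VRK3. ZNF490 (1.09), ZNF529 (1.48), ZNF546 (1.94) and ZNF227 (1.81) had control values of 27.7 or less in every library. The treated libraries were above the controls at each of them, with ZNF227 resting on the fewest reads, from 3.64 to 8.94 in control (adjusted p = 0.00462, and 0.0905 without dm-αKG replicate 3).

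The 12 promoter peaks that fell lay mostly away from the strongest peak. The only called one, upstream of a ZNF528 start, had 73.3, 82.2 and 69.2 normalised counts in the controls and 30.8, 56.4 and 16.5 with dm-αKG. The treated values were scattered but all below the controls, with a log2 fold change of -1.12 ± 0.24 (SE; adjusted p = 2.65e-04). It overlapped a peak of the deposited control list and none of the dm-αKG list. The count table merges both lists, so this peak entered it through the group where it was high. Its place in the lists is therefore no further support for the fall. The same holds for the ZNF749 peak, also in the control list alone, while that of ZNF793 was in both lists. ZNF749 had 65.3, 88.0 and 80.2 against 53.1, 28.2 and 34.4 (-0.94 ± 0.22; adjusted p = 9.71e-04), and ZNF793 56.3, 64.1 and 80.2 against 34.4, 15.4 and 50.9 (-1.0 ± 0.25; adjusted p = 0.00206, and 0.0570 without dm-αKG replicate 2).

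Falls at stronger peaks were small. ZNF83 had 299, 321 and 287 normalised counts in the controls and 224, 217 and 236 with dm-αKG (log2 fold change -0.43 ± 0.10, SE; adjusted p = 0.00144), at a peak with 3 copies of about 90% identity on the chromosome. Peaks of the count table at these copies had changes of 0.12, -0.33 and 0.07, none of which passed the test. ZNF576, which has no KRAB box and whose peak is also a start of IRGQ and SRRM5, had 199, 186 and 210 against 140, 131 and 141 (-0.52 ± 0.13; adjusted p = 0.00177). ZNF556 had 153, 154 and 148 against 105, 106 and 85.3 (-0.60 ± 0.15; adjusted p = 0.00179), the lowest of all leading peaks.

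**Figure D5:**
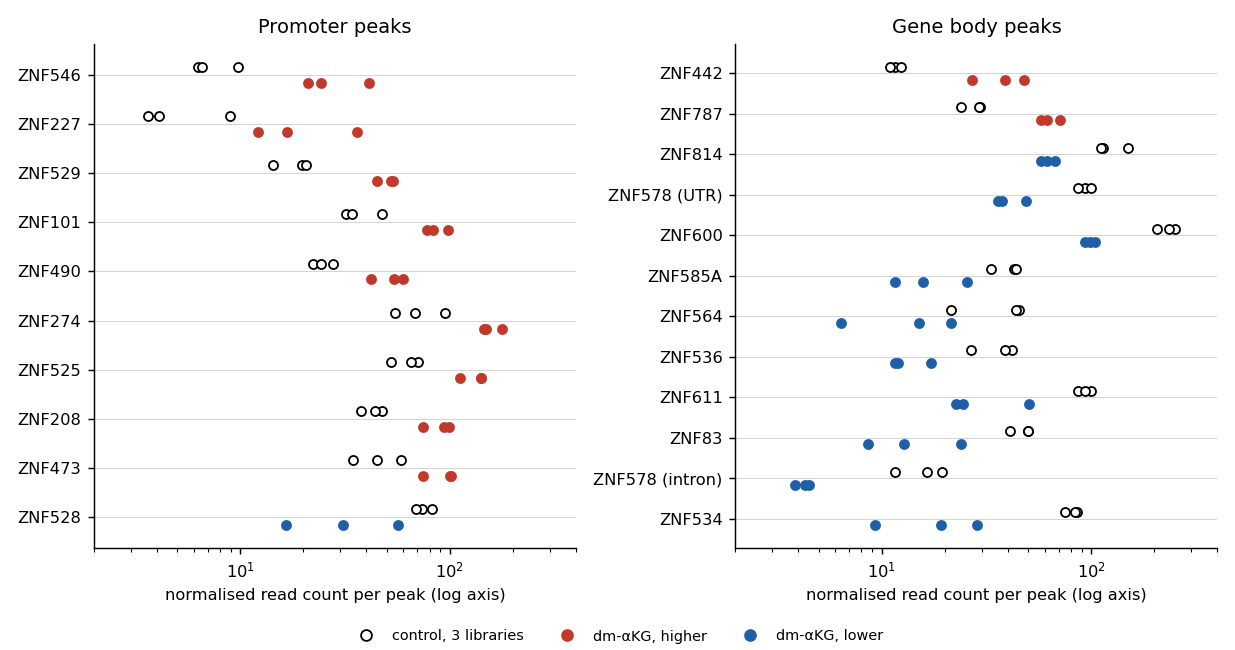
Normalised read count per peak (x axes, logarithmic) of the 10 promoter peaks (left) and 12 gene body peaks (right) called at an adjusted p below 0.01 and a log2 change of more than 1; open circles are the 3 control libraries and filled circles the 3 dm-αKG libraries, red where higher and blue where lower. The groups overlap at no peak shown except ZNF564, where the lowest control library equals the highest dm-αKG library at 21.5.

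Genes whose proteins are known to silence transposable elements were followed as a group of 9. Of their 9 leading promoter peaks 3 were more accessible and none less, against 30.5 and 1.22% of all 246. For all protein-coding genes the shares of leading peaks were 8.76 and 4.88%. The median of the 9 was 0.15, close to the 0.18 of all 246. ZNF91, which represses SVA elements, had 503, 496 and 528 normalised counts in the controls and 594, 585 and 603 with dm-αKG (log2 fold change 0.23, adjusted p = 0.0257). ZNF93, which represses some LINE-1 elements, had 541, 571 and 565 against 677, 691 and 627 (0.25, adjusted p = 0.00858). ZNF808 had 512, 534 and 525 against 645, 608 and 548 (0.21, adjusted p = 0.0449). All 3 were small, non-overlapping rises, and they lost the call in 5, 2 and 10 of 14 alternative fits (ZNF91, ZNF93 and ZNF808), with adjusted p up to 0.0846, 0.0566 and 0.277. ZNF417, ZNF534, ZNF587, ZNF649, ZNF676 and ZNF765 did not pass the test, with changes from 0.02 to 0.24, and the ZNF417 and ZNF587 peaks share 97% identity over 165 bases.

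The listed genes of 19p12 all had small positive values at their strongest peaks. Of 8, 2 were more accessible, ZNF492 (480, 396 and 400 against 484, 550 and 491 normalised counts; log2 fold change 0.25, adjusted p = 0.0240) and ZNF729 (458, 487 and 412 against 533, 602 and 483; 0.25, adjusted p = 0.0212). At ZNF729 the groups overlapped in 1 library of each. ZNF208, ZNF257, ZNF43, ZNF90, ZNF98 and ZNF99 had changes from 0.09 to 0.21 that did not pass. The 2 of 8 stand beside 30.5% of all 246 leading peaks and 8.76% of those of all protein-coding genes. Of the 4 printed sequences, those of ZNF91 and ZNF729 passed and those of ZNF676 (0.15) and ZNF98 (0.19) did not, although all 4 hold CCAAT. Over the 239 distinct leading peaks the median was 0.19 with CCAAT and 0.18 without. ZNF492 and ZNF729 each lost the call in 4 of 14 alternative fits, with adjusted p up to 0.174 and 0.220.

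Of 9 genes with another known role, 1 leading peak passed, a rise. Among all 246 leading peaks 30.5% were more accessible, and among those of all protein-coding genes 8.76%. ZNF296, a gene active in pluripotent cells, had 263, 240 and 262 normalised counts in the controls and 304, 292 and 325 with dm-αKG (log2 fold change 0.27, adjusted p = 0.0495), just inside the threshold, and it lost the call in 11 of 14 alternative fits (up to 0.251). The imprinted gene ZNF331 had one of the strongest of these peaks, at 707, 701 and 702 against 692, 807 and 787 (0.11, adjusted p = 0.309), and the groups overlapped. ZNF154, often methylated in tumours, was the one with a negative value, 287, 298 and 306 against 275, 242 and 241 (-0.22, adjusted p = 0.127). ZNF146, ZNF274, ZNF382, ZNF471, ZNF536 and ZNF541 had changes from 0.02 to 0.42 that did not pass.

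Levels varied more between promoters than with treatment. Per kb of peak, the strongest in control were at ZNF574 (4158), ZNF563 (4093) and ZNF584 (4052), with changes of 0.23, 0.20 and 0.09. The weakest were at ZNF227 (27.8), ZNF610 (37.5) and ZNF546 (37.6). ZNF610 had 6.26, 4.11 and 12.1 normalised counts against 10.0, 15.4 and 12, a change of 0.77 ± 0.51 that could not be told from 0 at this depth (adjusted p = 0.312).

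Inside the genes the balance was the reverse. Of the 287 gene body peaks, 46 were less accessible at an adjusted p below 0.05 (16%, against 10.5% of all peaks) and 17 more (5.92%, against 7.43%), with a median log2 fold change of -0.10. The strict rule called 10 less accessible (3.48%, against 1.96%) and 2 more (0.697%, against 0.782%). Of the 287, 41 lay near the start of another gene, with 7.32% less accessible, 7.32% more and a median of 0.04. The other 246 had 17.5% less and 5.69% more, with a median of -0.13. Gene body peaks of all protein-coding genes, counted away from every gene start, had 13.2% less accessible and 6.85% more, with a median of -0.04. The other genes of chromosome 19, counted away from starts in the same way, had 9.22% of 2181 less accessible and 11.3% more, with a median of 0.06. Of the 287, 23.7% were in the control peak list alone, against 15.4% of all peaks. The share was 18.2% for gene body peaks of all protein-coding genes and 15.1% for those of the other chromosome 19 genes. In the dm-αKG list alone were 13.6, 13.2, 15.5 and 14.0%, in the same order. Peaks in the control list alone entered the count table through the controls, and their part in the falls was not tested. Gene body peaks were found in 102 genes, most in ZNF536 (20), and 144 genes had none.

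The falls were mostly in introns. Of 219 intron peaks 42 were less accessible (19.2%) and 13 more, with a median of -0.16, and of 28 peaks in the last coding exon, which holds the finger array, 2 were less accessible and 1 more. The 2 last-exon falls were at ZNF607 (-0.98, adjusted p = 0.00162) and ZNF837 (-0.60, adjusted p = 0.0157). By cluster, 6 of the 10 called falls were in cluster 8, where 14 of 60 gene body peaks were less accessible (23.3%). ZNF578 alone held 7 of these 14, among its 11 gene body peaks, including both of its called falls. Cluster 10 had 9 of 34 and cluster 6 had 8 of 36, while cluster 3 had 4 less and 6 more of 30.

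The best supported of all was an intron peak of ZNF600, a KRAB gene of cluster 8. It had 251, 206 and 234 normalised counts in the controls and 104, 93.6 and 98.8 with dm-αKG. The treated libraries lay close together and well below the controls, with a log2 fold change of -1.21 ± 0.13 (SE; adjusted p = 1.36e-11). A ZNF578 peak in annotated untranslated sequence had 93.0, 100 and 86.2 against 48.8, 35.9 and 37.4 (-1.16 ± 0.20; adjusted p = 8.64e-06). Its groups did not overlap either. Both peaks have copies of at least 90% identity elsewhere on the chromosome, and how reads divide between copies was not tested.

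ZNF534, a KRAB gene next to ZNF578, had the largest fall. Its intron peak had 85.0, 83.8 and 75.3 normalised counts in the controls and 9.32, 19.2 and 28.4 with dm-αKG (log2 fold change -2.25 ± 0.27, SE; adjusted p = 1.68e-10). The promoter of the same gene gave no call, at 345, 318 and 349 against 350, 358 and 331 (0.04 ± 0.09; adjusted p = 0.788). ZNF611 had 99.3, 86.3 and 93.5 against 50.2, 24.4 and 22.5 (-1.40 ± 0.22; adjusted p = 6.80e-07), and ZNF814 of cluster 10 had 150, 114 and 111 against 61.7, 57.7 and 67.4 (-1.02 ± 0.18; adjusted p = 6.40e-06). Neither pair of groups overlapped.

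The other called falls were weaker peaks. ZNF83 had 41.1, 50.1 and 49.8 normalised counts against 8.61, 12.8 and 23.9 (log2 fold change -1.75, adjusted p = 2.44e-05). The second ZNF578 peak, in an intron, had 11.6, 16.4 and 19.4 against 4.30, 3.85 and 4.49 (-1.86, adjusted p = 0.00783), a few reads per treated library. ZNF536, a gene without a KRAB box that represses neuronal differentiation, had 42.0, 38.6 and 26.7 against 17.2, 11.5 and 12 (-1.35, adjusted p = 0.00195). Of its 20 gene body peaks 3 were less accessible and none more. ZNF585A (-1.21, adjusted p = 0.00371) and ZNF564 (-1.25, adjusted p = 0.00540) completed the list. Of all called gene body falls, only the ZNF600 and ZNF611 peaks were in both deposited peak lists. The others entered the count table through the control list alone, the group where they were high. At ZNF564 control replicate 1 and dm-αKG replicate 1 had the same value, 21.5, and the call was lost with adjusted p up to 0.0720 when control replicate 2 or dm-αKG replicate 2 was left out.

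The 2 called rises inside genes were at low counts too. Both peaks entered the count table through the dm-αKG list alone, the group where they were high. ZNF442, a KRAB gene of cluster 3, had 11.6, 12.3 and 10.9 normalised counts in the controls and 38.7, 47.5 and 26.9 with dm-αKG (log2 fold change 1.69 ± 0.35, SE; adjusted p = 1.37e-04). ZNF787, which has no KRAB box, had 29.5, 23.8 and 29.2 against 71.0, 57.7 and 61.4 (1.23 ± 0.25; adjusted p = 1.07e-04). The groups were well apart at both. Cluster 3 also held rises at ZNF44 (0.81, adjusted p = 2.30e-04) and ZNF709 (0.73, adjusted p = 0.0237), beside falls of other peaks at ZNF44 (-1.27 and -0.61).

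The sequences of the falling peaks were compared with the others. TEAD letters (GGAATG) had the largest difference in percent of the 11 motifs searched. They were in 14 of the 46 less accessible gene body peaks (30.4%) and 14.5% of the other 241. Gene body peaks of all protein-coding genes, away from gene starts, had them in 17.5%. AP-1 letters (TGANTCA) were in 6.52, 9.96 and 7.68%. NFY letters were in 17.4% of the 46 and 16.6% of the 241, SOX letters in 4.35 and 4.15%, and NRF2 letters in 6.52 and 8.71%. Copies with at least 90% identity over 80% of the peak existed elsewhere in hg38 for 42 of the 287 gene body peaks and 80 of the 688 promoter peaks. Of the 42, 11 were less accessible and none more, with a median of -0.33, while the 245 without a copy had 35 less and 17 more, with a median of -0.06. For promoter peaks the split made little difference, with 30.0% more accessible among the 80 and 25.5% among the 608, and medians of 0.24 in both. These shares are descriptions, and the differences were not tested.

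The partners of KRAB proteins were examined as a list of 20 genes. At their leading promoter peaks 1 was more accessible, 4 were less and 15 did not pass, with a median log2 fold change of 0.06. Among all protein-coding genes, 8.76% of leading peaks were more accessible and 4.88% less, with a median of 0.05. Of all 86 promoter peaks of the partners 16 were more accessible (18.6%, against 10.4% of all protein-coding promoter peaks) and 8 less (9.30%, against 3.86%). TRIM28, which KRAB domains bind, had 707, 732 and 684 normalised counts in the controls and 867, 871 and 849 with dm-αKG (0.28 ± 0.07, SE; adjusted p = 0.00123). The treated libraries stood clear of the controls. SETDB1, the methyltransferase that TRIM28 recruits, had 356, 339 and 330 against 372, 368 and 368 (0.11 ± 0.09; adjusted p = 0.417).

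The 4 leading peaks that fell were at ATRX, ATF7IP, DNMT1 and CHD4, and at CHD4 and DNMT1 other promoter peaks rose. ATRX, which with DAXX deposits histone H3.3, had 153, 178 and 181 normalised counts against 138, 121 and 95.8 (log2 fold change -0.49, adjusted p = 0.00809). ATF7IP, a partner of SETDB1, had 360, 377 and 316 against 301, 217 and 287 (-0.38, adjusted p = 0.00356). DNMT1, the maintenance DNA methyltransferase, had 241, 252 and 243 against 186, 199 and 181 (-0.38, adjusted p = 0.0106), and CHD4 of the NuRD complex had 1107, 982 and 1005 against 812, 893 and 943 (-0.23, adjusted p = 0.00738). Of the 10 promoter peaks of CHD4, 5 were more accessible and 1 less, and of the 6 of DNMT1, 2 were more accessible and 1 less. In each of the 4 leading peaks the treated libraries were below the controls, and each lost the call without 1 or 2 of the 6 libraries in turn (ATRX without control replicate 2 or dm-αKG replicate 3, ATF7IP without dm-αKG replicate 2, DNMT1 without control replicate 2 or dm-αKG replicate 1, CHD4 without control replicate 1 or dm-αKG replicate 1). TRIM28 and DNMT1 lie on chromosome 19, and their leading peaks changed in opposite directions.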

How the data were processed

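ATAC-seq libraries of 3 control and 3 dm-αKG cultures were analysed, grouped by their labels. The authors trimmed the reads, aligned them to hg38 with Bowtie2 and filtered them in the ENCODE ATAC-seq pipeline, run once per treatment, with peaks from MACS2 chosen for reproducibility between replicates. How the pipeline treated reads with several equally good positions is not given in the sources used here. The authors deposited 1 peak list per treatment, with a score, a fold enrichment ratio and p-values as −log10 for each peak. Only the summit positions were used here. The authors also deposited raw counts of reads per peak and library over both lists, merged after trimming to 200 bp (bedtools 2.28.0).

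Counts of all 171517 peaks were tested with edgeR 4.0.16 (TMM, quasi-likelihood F test) in R 4.3.3. Adjusted p is Benjamini-Hochberg over all peaks, and SE is the absolute log2 fold change over the square root of F. No peak was filtered out: 17 promoter and 26 gene body peaks had fewer than 10 reads in some library, and none had 0. Starts, bodies and exons are those of GENCODE 44, 3 read-through genes were left out, and the KRAB box was scored in coding sequences translated from GENCODE (at least 12 of 40 consensus residues; no gene scored between 10 and 15), where a protein table had been planned. Copies were searched with blastn 2.17.0. Some sequences are not reported here. A motif was searched on both strands in the central 200 bp of each peak, and 11 were searched in all.

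Named promoter peaks are the 6 of smallest adjusted p in each direction, the called ones, the strongest peak of each listed gene, and the 3 of highest and lowest control level per kb. All called gene body peaks, and the partner genes that passed plus TRIM28 and SETDB1, are named too. ZNF765, ZNF728, ZNF44, ZNF709, ZNF607 and ZNF837 were added after their values were seen. The members and lists were chosen with earlier results of these data known. Alternatives were DESeq2 1.42.0, other scalings, GC offsets, a filter at 10 counts, replicate blocks, each library left out, and other definitions of promoter and symbol.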

Additional observations from a re-analysis of the deposited data

How the results depend on the processing

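With DESeq2 the promoter peaks more accessible fell from 179 to 97 and those less accessible from 12 to 6, gene body peaks less accessible from 46 to 26 and more from 17 to 7, called gene body falls from 10 to 6, and partner peaks more accessible from 16 to 9. Over all peaks DESeq2 gave 3.65% more and 6.64% less accessible. With each library left out in turn, promoter peaks more accessible numbered 107 to 197, less accessible 7 to 13 and called less accessible 1 to 4. Gene body peaks numbered 30 to 41 (less), 8 to 16 (more) and 5 to 12 (called less), partner peaks 5 to 7 (less) and 8 to 15 (more), and the median of gene body peaks was -0.14 to -0.06. Without dm-αKG replicate 2 or 1, promoter peaks more accessible numbered 107 and 111, and without control replicate 3, 7 were less accessible. Called gene body falls were 5 without dm-αKG replicate 2. Gene body peaks less accessible were 30 without control replicate 2. Those more accessible were 8 without dm-αKG replicate 1, 10 without control replicate 2, and 11 without control replicate 3 or dm-αKG replicate 2. Partner peaks were 5 (less) and 9 (more) without control replicate 1, and 8 (more) without dm-αKG replicate 2.

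The 1 called promoter fall became 2 with loess offsets, with the filter and with the replicate block, 4 without control replicate 1, 2 without control replicate 2, and 0 with a window of 500 bp or canonical starts. The filter left 6 called gene body falls and 1 rise. A window of 500 bp left 5 called promoter rises. Canonical starts left 4 promoter peaks and 3 partner peaks less accessible. The promoter median stayed at 0.21 to 0.26.

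The labels do not say whether the replicate numbers pair the samples. Deviations from the group means over all peaks had correlations of -0.015, -0.001 and 0.013 between same-numbered libraries. With 3 libraries per group and the counting noise of single peaks, these values cannot decide it. With the replicate block 177 promoter peaks were more and 12 less accessible, and 44 gene body peaks less. Of the named peaks, compared in 913 refits, 843 kept direction and side of the threshold, 53 lost and 11 gained significance, and 6 changed sign without passing: the leading ZNF536 peak with GC offsets (-0.11), with the replicate block and GC offsets (-0.12) and with 1 of 2 libraries left out (-0.06 to 0.10 over all 6 omissions, -0.00 for control replicate 2), and the leading ZNF587 peak with 1 of 2 libraries left out (-0.01 to 0.06 over all 6). The cause of these moves was not tested. The labels give no batch, and depth limits most the peaks of few reads, such as ZNF227, whose adjusted p reached 0.0905.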
